A study of Mus musculus with 4 samples.

Results

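The step from radial glia-like cells (RGLs), the neural stem cells of the adult dentate gyrus, to neural progenitor cells (NPCs), their dividing progeny, was followed in single nuclei. Nuclei were taken by the name RGL or NPC in the cluster line of the deposited expression table, in the libraries collected 1, 2 and 4 weeks after tamoxifen (w1, w2 and w4), which gave 1513 of the 14367 nuclei of the series. RGLs numbered 486 in w1, 461 in w2 and 357 in w4, and NPCs 112, 75 and 22. The library of 8 weeks (w8) held 2 NPC nuclei, fewer than the minimum of 10, and stayed out. All libraries came from mice with a tamoxifen-inducible Cre and the reporter CAG floxStop-Sun1/sfGFP, on a C57BL/6J background, male and female, 6 to 8 weeks old, in which tamoxifen switched on a green tag of the nuclear envelope. Tagged nuclei were sorted from left dentate gyri, 4 of them pooled for each library, and read by 10x Chromium 3' v3.1 single-nucleus RNA sequencing. Only cells in which Cre had been active and their progeny were tagged, and each time is 1 library, so that time and library cannot be told apart.

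RGLs are slow-dividing cells with a radial process and an astroglia-like metabolism, held in quiescence by Notch, BMP and other niche signals. When activated they give rise to NPCs, which divide a limited number of times, pass through a stage marked by the T-box factor Eomes and yield neuroblasts, the young neurons that later become granule cells. The comparison asks which functions are gained and which are lost as a stem cell becomes a progenitor. The first neuroblast cluster (NB1) is given beside it to show whether a gain or loss had continued at the next step.

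The UMIs of all nuclei of a cluster in a library were added up, and RGL was compared with NPC in the 3 libraries as pairs. A level is given in CPM, the UMIs of a gene per 1000000 UMIs of the same nuclei, and a change as the log2 change fitted by edgeR, with its standard error. Calls needed a fold change of 1.5 or more with an adjusted p of 0.05 or less. The authors had drawn the clusters from the expression of these very genes. A p-value here therefore describes how far 2 clusters lie apart and is no independent evidence that they differ, and the spread it rests on is that between 3 pools, not between animals.

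The authors named the clusters by several of the markers used here, in the same nuclei. The marker counts therefore describe the clusters and are no independent check of their names. All 11 NPC markers found in the files were called higher in NPC, with a summed level of 373 to 487 CPM in RGL and 3031 to 3842 CPM in NPC, and 7 of 9 tested RGL markers were called lower. Median depth was close in both clusters, 4450 UMIs per nucleus in RGL and 4491 in NPC for w1, 4466 and 4235 for w2, and 3555 and 3284.5 for w4. At an equal 2000 UMIs per nucleus an NPC held more detected genes than an RGL (medians of 1302 to 1362 genes by library against 1148 to 1221). The 20 most abundant genes took 11.03 to 13.1% of the UMIs of NPC against 20.4 to 21.0% in RGL. Markers of oligodendrocytes (94.4 to 123 CPM in RGL, 13.1 to 126 in NPC), microglia (58.2 to 83.1 and 52.4 to 58.1) and interneurons (60.02 to 123 and 92.4 to 138) were low in both. Markers of neuroblasts summed to 197 to 351 CPM in RGL and 1769 to 2547 CPM in NPC, with 5 of 8 tested called higher and 1 lower (0 lower without w1). Those of oligodendrocyte precursors went from 37.4 to 66.3 CPM to 100.2 to 144 CPM (1 of 2 called higher), and those of pyramidal and mossy cells from 36.8 to 72.8 CPM to 78.6 to 152 CPM (2 of 5 called higher, 1 without w1). The part of these 3 lists in the other results was not tested. Endothelial markers summed to 13.5 to 28.7 CPM in RGL and to 24.6 and 26.2 CPM in NPC of w2 and w4, but to 246 CPM in NPC of w1, where 1 nucleus held 112 of these UMIs among its 4324. Its part in the results was not tested. Of 11 vascular and meningeal markers 3 could be tested, Pdgfrb, Cped1 and Ranbp3l, all called lower (sum of the list 213 to 236 CPM in RGL, 37.0 to 52.4 in NPC, 283 in astrocytes), while the defining members Dcn, Col1a1 and Rgs5 had at most 10 UMIs in RGL. In the deposited pseudo-time, 4 of 209 NPC nuclei (3 in w1, 1 in w4) lay below 4, among the RGLs, and 9 of 1304 RGL nuclei lay above it. Without these nuclei 344 of the 347 genes that could be named kept their call.

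Between RGL and NPC, 3398 of 10180 genes tested were called changed (33.4%), 1615 higher in NPC (15.9%) and 1783 lower (17.5%). Without w1, 1048 were called higher and 1265 lower of 10287, and without w2 1198 and 1245 of 10233, the background of the list counts given without a library. By the fitted change, 494 genes were at least 4-fold higher and 579 at least 4-fold lower. Beyond 16-fold, 127 genes were higher and 101 lower, among the latter genes without a UMI in NPC, whose fitted change depends on the prior count. The genes called higher took 8.41% of all UMIs of RGL and 25.6% of those of NPC, and the genes called lower 46.2% and 18.4%. By library, in w1 the genes called lower went from 47.3% to 18.1% of UMIs, in w2 from 45.3% to 18.2% and in w4 from 45.6% to 20.8%. These genes were chosen by their change between the same sums, so the shares had to move this way. The abundant transcript Malat1 is among those called lower. Plain CPM lay higher in NPC by 0.24 on the log2 scale for the median gene, against -0.01 after the TMM scaling of edgeR, and all log2 changes are relative to that scaling.

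**Figure D1:**
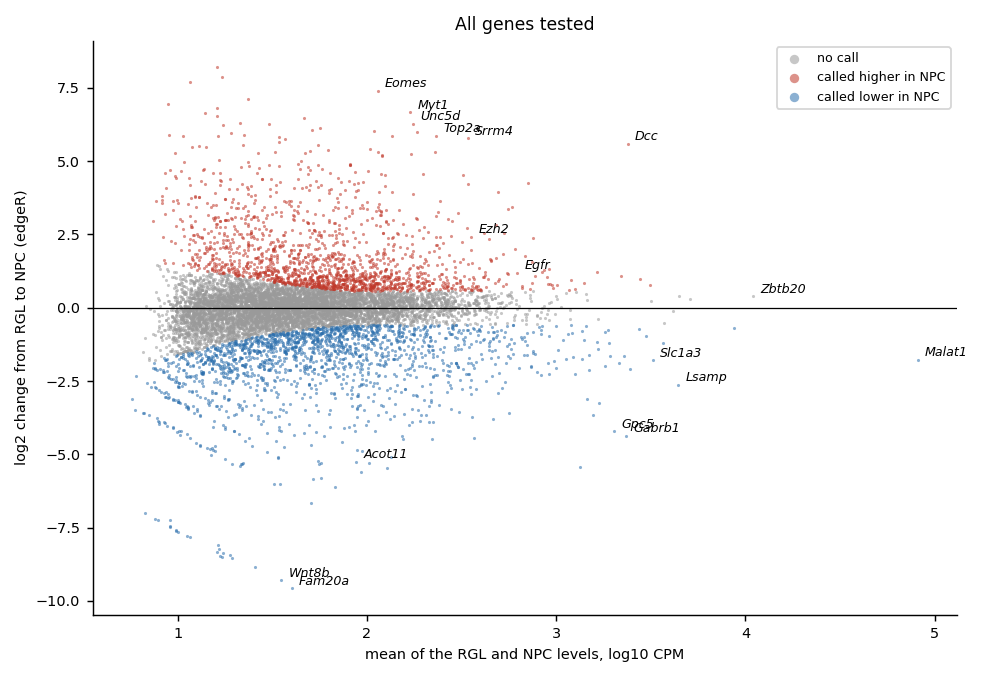
Each point is 1 of the 10180 genes tested, placed by the mean of its RGL and NPC levels (x axis, log10 CPM) and its log2 change from RGL to NPC (y axis), in red where called higher in NPC, in blue where called lower and in grey where not called. Gains beyond 16-fold (127 genes) lie mostly at low mean levels, while several of the most abundant transcripts, Malat1 and Lsamp among them, lie on the lower side.

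Among the largest gains were regulators of neuronal fate and of neurite guidance next to parts of the division machinery. Eomes (chr9:118478212-118486132, GRCm38), the T-box factor of intermediate progenitors, stood at 0, 2.35 and 0 CPM in RGL of w1, w2 and w4 and at 267, 200.2 and 78.6 CPM in NPC. Myt1, a zinc finger factor that represses non-neuronal genes, stood at 0.870, 4.23 and 2.21 CPM in RGL and 381, 299 and 209.7 CPM in NPC (log2 change 6.66 ± 0.30, edgeR adjusted p = 6.28e-37). Both were nearly absent from RGL in every library, and in NPC both were highest in w1 and lowest in w4. Unc5d (chr8:28646717-29219636), a netrin receptor, rose from 3.48, 3.29 and 5.89 CPM to 255, 449.8 and 511 CPM (6.27 ± 0.26), and Mdga1, a membrane protein that limits synapse formation, from 1.30, 6.58 and 7.36 to 375, 336 and 380.1 CPM (5.98 ± 0.27). Rtkn2 and Clvs1, the latter a lipid-binding protein of clathrin vesicles in neurons, had log2 changes of 6.28 ± 0.60 and 6.04 ± 0.35. The other members of the 12 largest gains, Ndc80, Cdca2, Kif23, Top2a, Neil3 and Melk, serve mitosis or DNA.

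The 12 lowest fitted changes belonged to genes with no UMI in any of the 209 NPC nuclei. Their fitted values depend on the prior count of the fit, so they are not ranked by size here, and only a lower bound of the fold is given, set against the 3.33 CPM that a count of 0 allows. Genes with UMIs in NPC, such as Acot11 (log2 change -5.24 ± 0.39), had larger measured folds than most of these bounds. Fam20a (chr11:109669749-109722279), which partners a secretory-pathway kinase, stood at 89.6, 72.3 and 76.6 CPM in RGL and was at least 24.1-fold lower in NPC. Wnt8b (chr19:44493472-44514273), a Wnt ligand, stood at 56.97, 81.7 and 75.8 CPM and was at least 21.2-fold lower. Ass1, an enzyme of arginine synthesis, stood at 49.1, 48.9 and 57.4 CPM and was at least 15.3-fold lower. These 3 genes were found in RGL at similar levels in every library and in no NPC library. Etnppl, a lyase of phosphoethanolamine in astroglia, stood at 0 in NPC too, like Fbln5 and Col11a2, proteins of the extracellular matrix (at least 10.3-fold and 10.4-fold lower), and Aqp9, an aquaglyceroporin, was at least 5.44-fold lower. The remaining members were Slc14a2, Olfml1, Drc1, Jade2 and the antisense transcript RP23-6A14.10, each at least 5.91-fold lower. Whether counting used strand is not given in the sources used here. In all, 168 of the 1783 genes called lower had at most 3 UMIs in NPC (22 had none), and 24 of the 1615 genes called higher had at most 3 UMIs in RGL (4 had none). RGL held 5786293 UMIs against 899910 of NPC, so a count of 0 allows up to 3.33 CPM in NPC and up to 0.518 CPM in RGL.

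Genes were then read by function, in 47 lists of known pathways and machines and 12 lists of cell type markers. The share of members called is read against 15.9% higher and 17.5% lower over all genes, and the median log2 change against -0.01. Levels after TMM scaling did not overlap between the clusters in 19.4% (NPC above RGL) and 23.4% (NPC below RGL) of all genes tested. Among called genes this held for 1391 of the 1615 higher and 1647 of the 1783 lower. Named genes were picked for large called changes, so a lack of overlap describes them and is no further support.

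**Figure D2:**
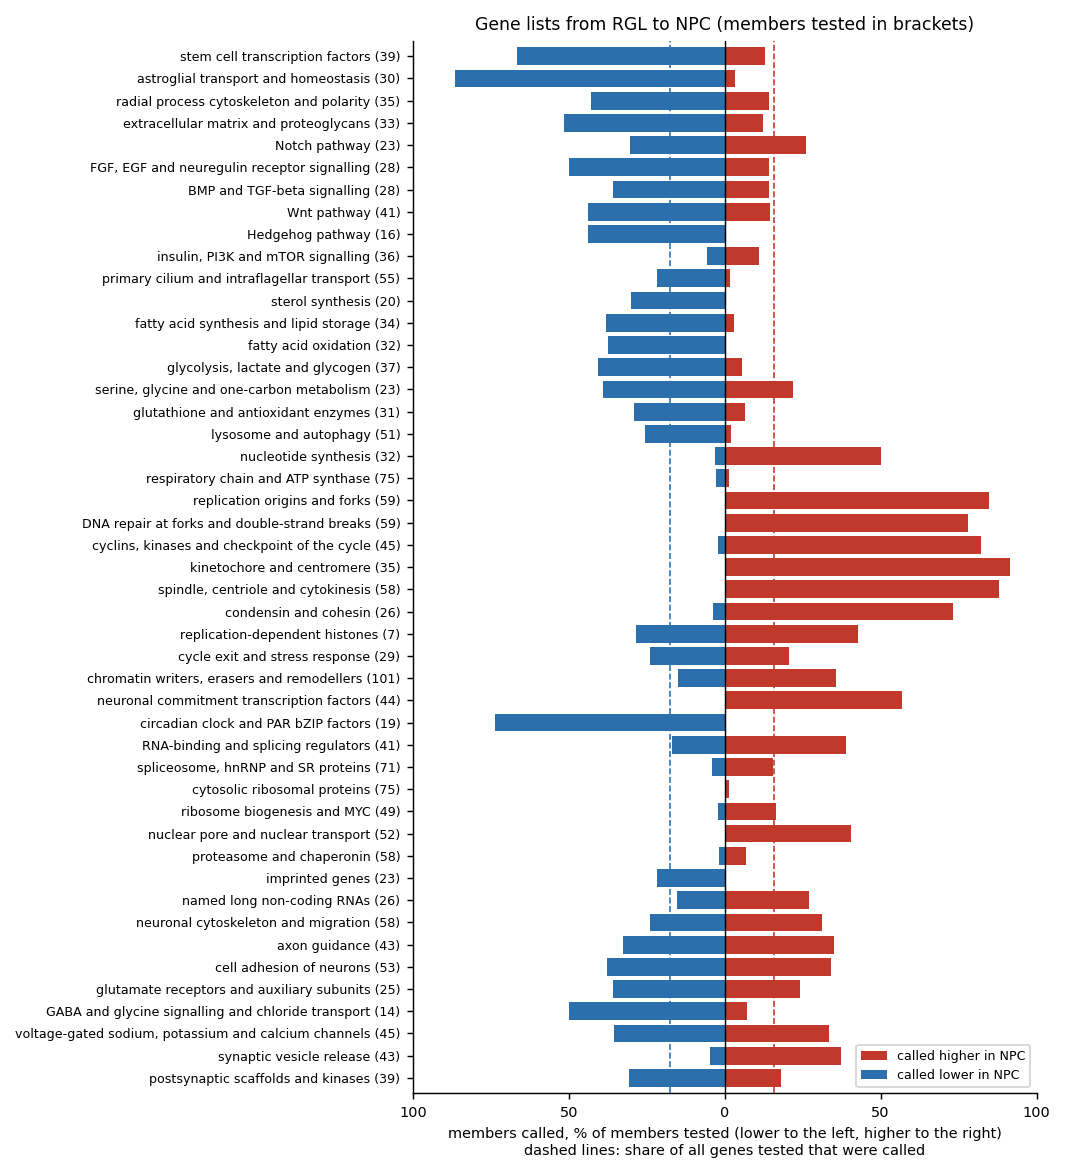
Bars give, for each of the 47 functional lists, the share of tested members called higher (red, to the right) and called lower (blue, to the left) in NPC, in %, with the number of members tested in brackets, and dashed lines mark the shares over all genes tested (15.9% and 17.5%). Kinetochore, spindle, replication, cyclin, repair and condensin lists reach furthest to the right, with 32 of 35 kinetochore members called higher, and the astroglial transport list furthest to the left, with 26 of 30 called lower.

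The division machinery was called higher nearly throughout. DNA replication genes were called higher in 50 of 59 tested members and lower in 0. The median log2 change was 2.47, and the summed level went from 1488 to 1760.3 CPM in RGL to 7006 to 8309.5 CPM in NPC. Top2a, the topoisomerase that untangles replicated chromosomes, was counted in 15 of 1304 RGL nuclei (1.15%, 95% exact interval 0.645 to 1.89) and in 83 of 209 NPC nuclei (39.7%, 33.0 to 46.7). Eomes was counted in 4 RGL nuclei (0.307%) and 86 NPC nuclei (41.1%, 34.4 to 48.2), and both genes together in 35 NPC nuclei (16.7%). In the 67 astrocyte nuclei of the same libraries, which should lack both, neither was counted, which allows a share of nuclei with a UMI of up to 4.48% at the limit of 3 counts (95% exact interval 0 to 5.36%), at median depths of 4670 UMIs per nucleus in astrocytes, 4143 in RGL and 4236 in NPC. Of the 15 RGL nuclei with Top2a, 11 were in w1, 3 in w2 and 1 in w4. Clspn, an adaptor of the replication checkpoint, stood at 8.26, 1.88 and 2.94 CPM in RGL and 148, 145 and 288 CPM in NPC. Chaf1b, a histone chaperone of the fork, stood at 5.22, 0.470 and 1.47 and 78.2, 46.2 and 39.3 CPM, and Mcm10, which starts forks, at 3.04, 4.23 and 0 and 60.1, 55.5 and 65.5 CPM. No RGL library reached any NPC library for these 3 genes.

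Repair genes of forks and breaks were called higher in 46 of 59 members (median 1.89). Brip1, a helicase that works with Brca1, went from 11.7, 0.470 and 2.21 CPM to 283, 148 and 301 CPM (5.22 ± 0.31, edgeR adjusted p = 1.20e-28). Exo1, an exonuclease, went from 2.17, 0.470 and 2.21 to 64.1, 33.9 and 39.3 CPM, and Brca1 from 13.9, 3.76 and 2.94 to 192, 166 and 183 CPM. In RGL both Brip1 and Brca1 were highest in w1. Cyclins, cycle kinases and checkpoint genes were called higher in 37 of 45 members (median 2.27). Melk, a mitotic kinase, was at 2.17, 0 and 0 CPM in RGL and 68.1, 67.8 and 65.5 CPM in NPC, and E2f7, an atypical E2F repressor, at 3.91, 0.470 and 0 and 124, 64.7 and 65.5 CPM. Bub1 and Ttk, kinases of the spindle checkpoint, had changes of 5.27 ± 0.57 and 4.89 ± 0.47. The single member called lower (2 without w4) was Ccnd3, a D-type cyclin, at 145, 145 and 115 CPM in RGL and 70.1, 55.5 and 13.1 CPM in NPC (-1.57 ± 0.24, edgeR adjusted p = 4.24e-08), with all RGL libraries above all NPC libraries.

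The kinetochore and spindle lists had the largest medians of the 47 functional lists. Kinetochore and centromere genes were called higher in 32 of 35 members (median 3.40), with a summed level of 514 to 601 CPM in RGL and 2961 to 4037 CPM in NPC. Ndc80, which ties the kinetochore to microtubules, stood at 2.17, 0 and 0 CPM in RGL and 74.1, 98.6 and 183 CPM in NPC (6.46 ± 0.52, edgeR adjusted p = 3.10e-20), and Cenpf, a large kinetochore protein, at 3.91, 0.940 and 0.736 and 94.2, 98.6 and 236 (5.53 ± 0.43). Their few RGL UMIs lay mostly in w1. Cdca8, of the passenger complex, had a change of 4.87 ± 0.51. Spindle, centriole and cytokinesis genes were called higher in 51 of 58 members (median 2.85), among them the motors Kif23 (2.61, 0.470 and 0 CPM in RGL, 90.2, 108 and 144 CPM in NPC) and Kif11 (6.52, 4.23 and 0 and 182, 206 and 341). Mki67, which coats mitotic chromosomes, had a change of 5.37 ± 0.43. Condensin and cohesin genes were called higher in 19 of 26 members (median 1.03). Cdca2, a phosphatase adaptor of mitotic exit, led them (6.15 ± 0.47), with Esco2, an acetyltransferase of cohesin, at 4.82 ± 0.44. Hdac8, the cohesin deacetylase, was the member called lower, at 882, 784 and 715 CPM in RGL and 331, 342 and 511 CPM in NPC (-1.40 ± 0.16). The mRNAs of replication-dependent histones mostly lack the poly(A) tail that the assay captures, and 7 of 71 members of that list could be tested (3 higher, 2 lower, but 0 lower without w1 or without w2). Slbp, which binds their mRNAs, rose from 20.9, 22.1 and 17.7 to 84.2, 114 and 131 CPM.

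The 250 bases before the start of 6 of these genes are shown because the CCAAT box and the cell cycle homology region (CHR) are known elements of mitotic promoters, and because the 6 are the largest gains of the division lists that have an entry in the RefSeq promoter table (GRCm38.p6). They read 5' to 3' towards the start, and capitals mark CCAAT or its reverse complement ATTGG and the CHR letters TTTGAA or their reverse complement TTCAAA. The E2F letters TTTCCCGC and TTTGGCGC were searched on both strands too.
Ndc80 (chr17:71526858-71527107, minus strand): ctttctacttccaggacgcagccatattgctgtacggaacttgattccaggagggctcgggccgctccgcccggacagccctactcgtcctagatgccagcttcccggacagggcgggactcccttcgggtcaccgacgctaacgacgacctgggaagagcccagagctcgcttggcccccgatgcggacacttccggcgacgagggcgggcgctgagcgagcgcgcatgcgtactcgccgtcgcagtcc
Kif23 (chr9:61946800-61947049, minus strand): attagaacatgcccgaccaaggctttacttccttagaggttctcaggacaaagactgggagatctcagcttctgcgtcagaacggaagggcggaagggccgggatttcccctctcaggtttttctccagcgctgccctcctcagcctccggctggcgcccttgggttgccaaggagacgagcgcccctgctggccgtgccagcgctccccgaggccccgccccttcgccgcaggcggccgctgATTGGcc
Top2a (chr11:99024190-99024439, minus strand): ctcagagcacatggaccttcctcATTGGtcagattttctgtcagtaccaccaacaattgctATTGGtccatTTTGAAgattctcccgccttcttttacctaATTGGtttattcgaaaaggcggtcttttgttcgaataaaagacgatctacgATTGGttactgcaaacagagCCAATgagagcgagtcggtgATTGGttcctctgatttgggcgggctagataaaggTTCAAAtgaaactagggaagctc
Neil3 (chr8:53639066-53639315, minus strand): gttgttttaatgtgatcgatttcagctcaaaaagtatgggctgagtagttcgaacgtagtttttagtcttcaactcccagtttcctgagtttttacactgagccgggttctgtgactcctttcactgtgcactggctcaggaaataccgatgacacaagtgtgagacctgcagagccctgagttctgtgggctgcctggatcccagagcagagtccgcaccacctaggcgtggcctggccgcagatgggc
Melk (chr4:44300667-44300916, plus strand): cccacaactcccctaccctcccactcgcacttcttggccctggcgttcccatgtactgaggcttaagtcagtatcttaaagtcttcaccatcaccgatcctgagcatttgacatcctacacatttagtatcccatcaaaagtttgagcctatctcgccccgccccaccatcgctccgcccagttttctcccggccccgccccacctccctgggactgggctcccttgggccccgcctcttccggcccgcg
Cenpf (chr1:189688087-189688336, minus strand): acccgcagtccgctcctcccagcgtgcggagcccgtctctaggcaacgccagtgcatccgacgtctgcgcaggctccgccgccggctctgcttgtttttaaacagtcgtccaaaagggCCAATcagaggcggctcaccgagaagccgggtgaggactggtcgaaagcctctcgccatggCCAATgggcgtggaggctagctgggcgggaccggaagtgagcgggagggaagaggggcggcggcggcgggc
The Top2a window held 6 CCAAT matches, at 54 to 227 bases before the start, and 2 CHR matches. Cenpf held 2 CCAAT matches and Kif23 held 1, and none of the 6 windows held the E2F letters. Over all 27025 promoters of the table, windows of the same length held CCAAT in 34.5%, the CHR letters in 16.3% and the E2F letters in 1.35%. Of the 32 kinetochore genes called higher 26 had an entry, and 57.7% of these held CCAAT, 23.1% CHR and 11.5% E2F letters. Of the 51 spindle genes 42 had an entry, with 61.9%, 33.3% and 7.14%. Among 14 of the 16 nucleotide synthesis genes called higher the shares were 42.9%, 14.3% and 0%. Among 19 of the 21 nuclear pore and transport genes called higher they were 36.8%, 21.1% and 10.5%, the first near the 34.5% of all promoters. A match of letters does not show that a factor binds there, and a window without a match says nothing of the factor.

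Genes that supply division followed in part. Nucleotide synthesis genes were called higher in 16 of 32 members and lower in 1 (median 0.75). Rrm1, the large subunit of ribonucleotide reductase, stood at 12.6, 11.7 and 5.15 CPM in RGL and 98.2, 92.4 and 223 CPM in NPC, and Tk1, thymidine kinase, at 8.70, 1.88 and 4.42 and 68.1, 40.05 and 65.5 CPM. Tyms, thymidylate synthase, stood at 23.5, 13.2 and 8.83 and 130.3, 108 and 170.4 CPM, and Dck, deoxycytidine kinase, at 3.04, 7.05 and 4.42 and 42.1, 40.05 and 91.7 CPM. All 4 were higher in every NPC library than in any RGL library. Prpsap2, which binds phosphoribosyl pyrophosphate synthetase, was the member called lower (-0.94 ± 0.36), with overlapping levels and no call without w1 or without w2 (edgeR adjusted p = 0.0752 and 0.534). Nuclear pore and transport genes were called higher in 21 of 52 members and lower in 0 (median 0.45), or in 12 and 1 without w1. Rcc1, the exchange factor of Ran, stood at 5.65, 9.40 and 7.36 CPM in RGL and 28.1, 61.6 and 65.5 CPM in NPC. Ndc1, a membrane nucleoporin, had a change of 2.14 ± 0.38, and Rangap1 and Nup85 of 1.76 ± 0.31 and 1.53 ± 0.31.

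Chromatin genes were called higher in 36 and lower in 15 of 101 members (median 0.23), the latter a share near the 17.5% over all genes. Uhrf1, which keeps DNA methylation through replication, rose from 8.26, 1.41 and 2.21 to 108, 142 and 144 CPM, and Lmnb1, a lamin, from 28.3, 27.7 and 17.7 to 240.5, 262 and 249 CPM. Hmgn2, a nucleosome-binding protein, had a change of 2.49 ± 0.41. Prmt8, a membrane-bound arginine methyltransferase of neurons, had the largest rise of the list, from 1.30, 0.940 and 4.42 to 98.2, 89.3 and 13.1 CPM, with its lowest NPC level in w4. Those called lower included the de novo DNA methyltransferase Dnmt3a (-0.97 ± 0.20), the histone demethylase Kdm5b (-1.72 ± 0.20), Tet1, which oxidises methylated DNA (-0.95 ± 0.23), and the remodeller Smarca2 (-1.08 ± 0.18).

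Among transcription factors of neuronal commitment all calls in the fit of all 3 libraries were on the higher side. Of 44 members, 25 were called higher and 0 lower (1 lower without w4), with a median of 0.87. Their summed level was 8879.5 to 10434 CPM in RGL and 18598 to 21308 CPM in NPC. Scrt2, a repressor of the Snail family, stood at 0.435, 1.41 and 1.47 CPM in RGL and 68.1, 64.7 and 78.6 CPM in NPC, and Dlx1, a homeobox factor best known from interneuron lineages, at 0, 1.88 and 1.47 and 90.2, 30.8 and 39.3. For both genes every NPC library lay above every RGL library.

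The list of RNA-binding and splicing regulators held 16 members called higher and 7 called lower of 41. The share called lower was near the 17.5% over all genes. Srrm4, the splicing factor of neuronal microexons, stood at 4.78, 12.7 and 11.8 CPM in RGL and 659, 758 and 380.1 CPM in NPC (5.78 ± 0.23, edgeR adjusted p = 4.24e-41). Rbfox3, the NeuN antigen, stood at 22.2, 17.9 and 21.3 and 681, 591 and 367 CPM (4.52 ± 0.20), and Srrm3, a relative of Srrm4, at 2.61, 4.70 and 9.57 and 68.1, 58.5 and 105 CPM. For all 3 genes no RGL library reached an NPC library. Called lower were Qk (-2.06 ± 0.16), the glial splicing factor, Cpeb1 (-1.95 ± 0.26) and Cpeb4 (-1.55 ± 0.20), which act on poly(A) tails, Zfp36l1 (-1.64 ± 0.20), a factor of mRNA decay, Mbnl2 (-1.43 ± 0.19) and Msi2 (-1.19 ± 0.13), an RNA-binding protein of neural stem cells. Among long non-coding RNAs, Miat rose from 7.83, 15.03 and 13.3 to 453, 323 and 183 CPM, and Malat1, the most abundant transcript of RGL nuclei in this list, fell from 112890.0, 130184 and 128868 CPM to 35432, 41691 and 57918 CPM (-1.78 ± 0.14). Neat1 fell too (-2.62 ± 0.24).

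**Figure D3:**
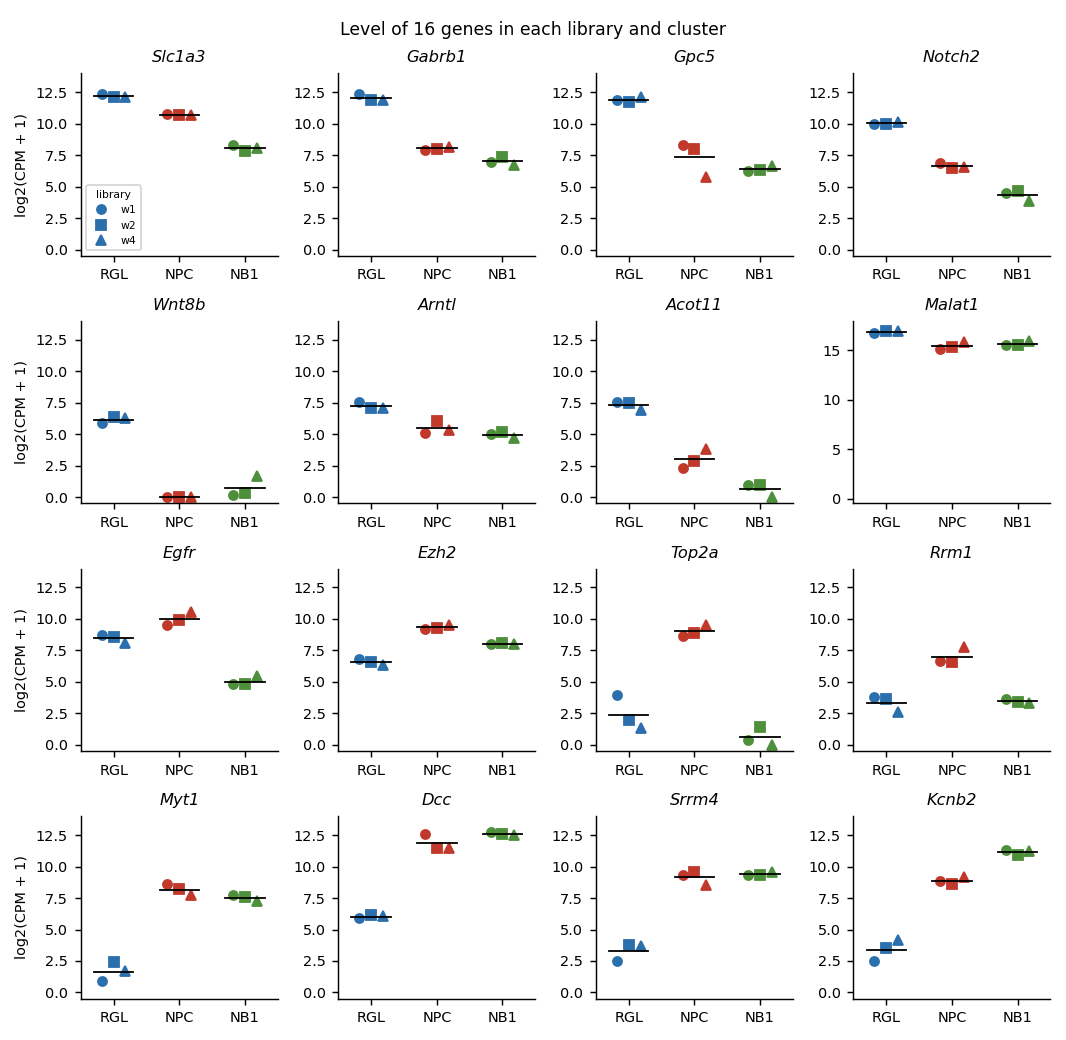
Level of 16 genes, as log2(CPM + 1), in each library (circle w1, square w2, triangle w4) of RGL, NPC and NB1, with a black line at the mean of the 3 libraries, on 1 scale for all panels except the higher one of Malat1. Slc1a3, Gabrb1, Gpc5, Notch2, Wnt8b, Arntl, Acot11 and Malat1 are lower in NPC than in RGL and Egfr, Ezh2, Top2a, Rrm1, Myt1, Dcc, Srrm4 and Kcnb2 higher, while Egfr, Ezh2, Top2a and Rrm1 are lower again in NB1.

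Genes of neuronal wiring split. Axon guidance genes were called higher in 15 and lower in 14 of 43 members. Dcc, a netrin receptor, stood at 57.8, 70.00 and 65.5 CPM in RGL and 6190.2, 2874 and 2897 CPM in NPC (5.60 ± 0.18, edgeR adjusted p = 1.17e-48). Ephb2, an ephrin receptor, stood at 6.96, 14.1 and 11.8 and 240.5, 249.5 and 183 CPM, and Slit1, a repulsive ligand, at 0.435, 2.35 and 4.42 and 56.1, 77.02 and 91.7 CPM. In the other direction Ephb1, a close relative of Ephb2, stood at 992, 711 and 833 CPM in RGL and 126, 129 and 197 CPM in NPC (-2.90 ± 0.18), with the plexin Plxnc1 and the ephrin receptor Epha5 at -2.27 ± 0.27 and -2.08 ± 0.20. None of these genes had overlapping RGL and NPC levels. Adhesion genes were called in both directions too (18 higher, 20 lower of 53), with Cadm3 (4.03 ± 0.39), Nrxn3 (3.95 ± 0.18) and Dscam (3.95 ± 0.23) rising and Ptprt (-4.44 ± 0.25), Lsamp (-2.62 ± 0.15), Lrrtm3 (-2.59 ± 0.35) and Ncam2 (-2.53 ± 0.18) falling. Of the neuronal cytoskeleton 18 of 58 members were called higher, with Dcx, the microtubule protein of migrating neuroblasts, at 3.48, 9.40 and 2.94 CPM in RGL and 248, 139 and 105 CPM in NPC. In the same list 14 were called lower, with Ank2, an ankyrin, at 4628, 3126 and 3595 and 1164, 961 and 1114 CPM.

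Of the synapse, the release machinery was the side with more gains than losses. Synaptic vesicle genes were called higher in 16 of 43 members and lower in 2. Slc17a6, the vesicular glutamate transporter VGLUT2, stood at 0.435, 3.76 and 0 CPM in RGL and 54.1, 43.1 and 78.6 CPM in NPC. Sv2c, a vesicle glycoprotein, stood at 8.26, 8.93 and 7.36 and 232, 265 and 183 CPM, and Cplx2, a complexin, at 34.8, 31.01 and 45.6 and 267, 231 and 262 CPM. No RGL library reached an NPC library for these genes. The members called lower, Unc13b (-1.29 ± 0.28) and Syn3 (-0.98 ± 0.30), lost their calls without w2 (edgeR adjusted p = 0.0661) and without w1 (0.606). GABA and glycine genes were called lower in 7 and higher in 1 of 14 members. Gabrb1, a subunit of the GABA-A receptor, fell from 5332, 3818 and 3819 to 244, 259 and 288 CPM (-4.37 ± 0.17, edgeR adjusted p = 3.83e-42). Glutamate receptor genes were called higher in 6 (3 without w1) and lower in 9 of 25, with Gria4 rising (3.50 ± 0.27) and Gria1 falling (-2.24 ± 0.17). Among voltage-gated channels (15 higher, 16 lower of 45) the potassium channel Kcnb2 went from 4.78, 10.3 and 16.9 to 471, 382 and 577 CPM, while Kcnip1, a channel-binding protein, went from 418, 372 and 194 to 44.1, 24.6 and 39.3 CPM.

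Many transcription factors of the stem cell itself were lower. Of 39 stem cell transcription factors, 26 were called lower and 5 higher (median -1.09). Those higher made up 12.8%, less than the 15.9% over all genes. Tcf7l1, a repressor of Wnt targets, stood at 94.4, 104 and 89.1 CPM in RGL and 4.01, 6.16 and 0 CPM in NPC, and Id4, an inhibitor of proneural factors, at 241, 199.7 and 157 and 22.04, 3.08 and 13.1 CPM. Etv4, an effector of FGF signals, stood at 56.5, 65.8 and 69.2 and 2.00, 9.24 and 13.1 CPM, and Hopx, a marker of quiescent stem cells, at 295, 329 and 316 and 26.1, 52.4 and 13.1 CPM. All 4 were lower in each NPC library than in any RGL library. Those called higher were Zfhx4 (2.14 ± 0.35), Tead1 (1.23 ± 0.14), an effector of the Hippo pathway, the nuclear factor I members Nfix (0.99 ± 0.16) and Nfib (0.98 ± 0.13), and the homeobox factor Lhx2 (0.84 ± 0.20), whose levels overlapped and whose call was lost without w2 (edgeR adjusted p = 0.0838). Nfib is abundant, at 1812, 1461 and 1561 CPM in RGL and 4272, 3367 and 4024 CPM in NPC, and the summed plain CPM of the list was no lower in NPC (25712 to 31266) than in RGL (21372 to 27852), although 26 members fell. Nfia and Zbtb20, also abundant, were not called (0.23 ± 0.13 and 0.39 ± 0.13).

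Astroglial transport was, of the 47 functional lists, the one with the largest share of members called lower, 26 of 30 (median -1.95), and its summed level fell from 11787 to 13990.0 CPM in RGL to 4146 to 4745 CPM in NPC. Slc39a12, a zinc transporter, stood at 187, 149 and 138 CPM in RGL and 16.03, 6.16 and 0 CPM in NPC (-4.21 ± 0.34, edgeR adjusted p = 4.64e-20). Ttyh1, a membrane protein of glia, stood at 391, 345 and 295 and 24.05, 43.1 and 13.1 CPM, and Slc14a1, a urea transporter, at 38.3, 36.6 and 47.1 and 4.01, 0 and 0 CPM. Slc7a10, a transporter of small neutral amino acids, had a change of -3.13 ± 0.59. All these genes were lower in every NPC library. Abcd2, a peroxisomal transporter of fatty acids, was the member called higher (1.14 ± 0.26), a call that was lost without w1 (edgeR adjusted p = 0.137). Markers of astrocytes were lower too, with 6 of 6 tested called lower. They summed to 433 to 510.1 CPM in RGL and 108 to 183 CPM in NPC. The marker list shares Slc7a10 with the transport list, so it is no separate observation, and its part in the result was not tested.

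**Figure D4:**
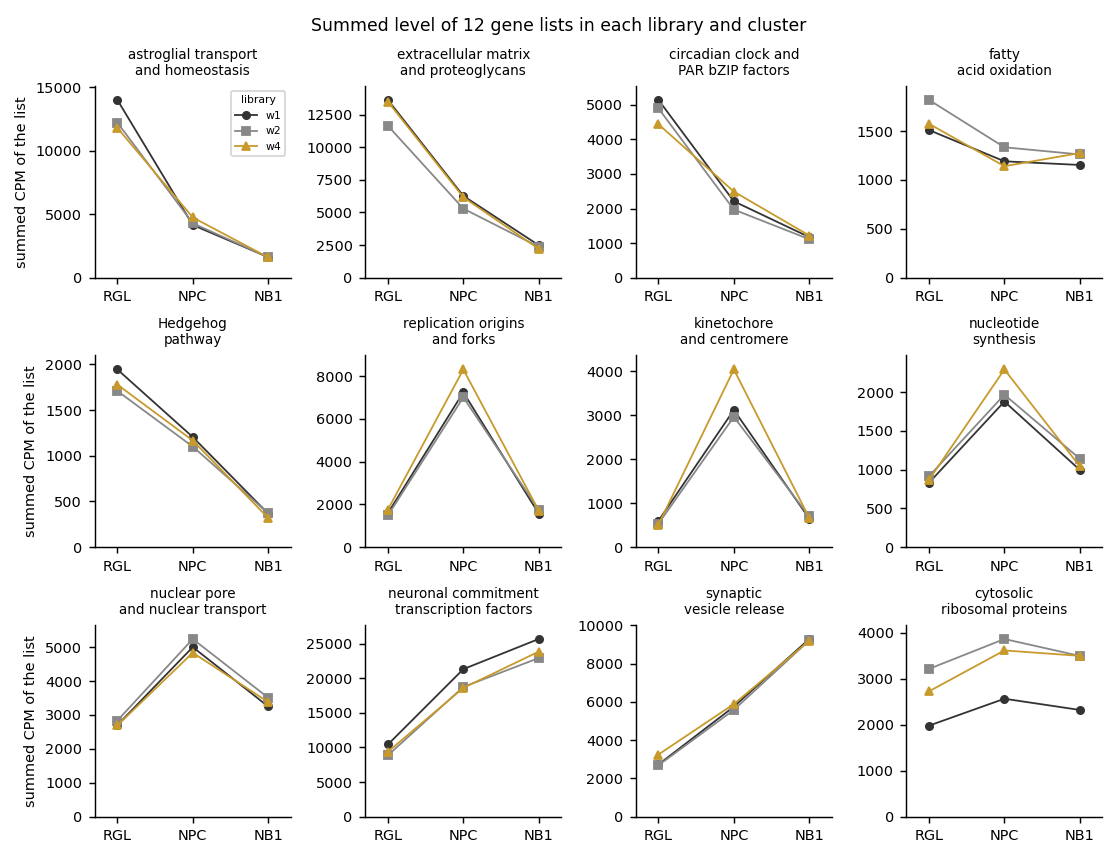
Summed CPM of the members of 12 lists (y axis, from 0) in RGL, NPC and NB1, with 1 line for each library (w1, w2, w4). Astroglial transport falls from 11787 to 13990 CPM in RGL to 4146 to 4745 CPM in NPC in all 3 libraries, and replication rises from 1488 to 1760 CPM to 7006 to 8310 CPM and falls again in NB1.

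Genes of the cell's surroundings and shape followed. Extracellular matrix genes were called lower in 17 and higher in 4 of 33 members (median -0.96), the latter 12.1% against 15.9% over all genes. Gpc5, a glypican, stood at 3718, 3437 and 4396 CPM in RGL and 317, 256 and 52.4 CPM in NPC (-4.22 ± 0.18, edgeR adjusted p = 1.82e-38). Tnc, tenascin C, stood at 731, 426 and 459 and 40.1, 70.9 and 91.7 CPM, and Adamts9, a metalloprotease, at 42.2, 39.5 and 87.6 and 2.00, 6.16 and 0 CPM. For these 3 genes every NPC library lay below every RGL library. Called higher were Reln (1.87 ± 0.37), Lama5 (1.75 ± 0.47) and Vcan (1.58 ± 0.29). Of 35 genes of the radial process and of polarity 15 were called lower. Itgb5, an integrin, had a change of -3.48 ± 0.35, and Dtna, of the dystrophin complex, stood at 2704, 2417 and 2516 CPM in RGL and 325, 434 and 288 CPM in NPC. Another 5 members were called higher, a share near the 15.9% over all genes. They were Crb1 (1.75 ± 0.31), Pard6g (1.38 ± 0.36), Dchs1 (1.24 ± 0.39), Ctnna2 (0.96 ± 0.14) and Ctnnb1 (0.91 ± 0.23). Of these Ctnna2, an alpha-catenin of neurons, kept its call whichever library was left out, while Pard6g and Ctnnb1 lost it without w1 (edgeR adjusted p = 0.121 and 0.186) and Crb1 and Dchs1 without w2 (0.0805 and 0.467).

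The Notch pathway keeps stem cells undifferentiated through contact with ligand-bearing neighbours. Its genes were called in both directions, 6 higher (2 without w1) and 7 lower of 23. On the ligand side Dll1 went from 10.9, 22.1 and 21.3 to 44.1, 52.4 and 39.3 CPM (1.22 ± 0.37, edgeR adjusted p = 0.00549, and 0.283 without w1). Of the receptors Notch2 fell from 1028, 984 and 1089.6 CPM to 118, 86.3 and 91.7 CPM (-3.60 ± 0.19, edgeR adjusted p = 1.86e-32), while Notch1 was not called (137, 156 and 171 CPM in RGL, 166, 114 and 209.7 in NPC). The levels of Notch2 and Dll1 did not overlap between the clusters, and those of Notch1 did. Of the modifiers Lfng, which tunes ligand choice, fell (-2.80 ± 0.45), as did Dtx4 (-4.60 ± 0.86). Among target genes Hes5 stood at 93.1, 111 and 44.2 CPM in RGL and 16.03, 12.3 and 52.4 CPM in NPC. It fell in the paired fit (-2.62 ± 0.35, edgeR adjusted p = 4.47e-10). In w4, however, its plain level was higher in NPC than in RGL, and it was lower there only after TMM scaling. Hes6, which opposes Hes1, rose from 18.3, 28.2 and 19.9 to 84.2, 70.9 and 105 CPM, and Maml3, a coactivator, had a change of 0.99 ± 0.16.

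FGF, EGF and neuregulin signals drive the growth of progenitors. Of 28 members 14 were called lower (8 without w2) and 4 higher, the latter a share of 14.3%, near the 15.9% over all genes. Of the ligands Fgf1 fell from 35.7, 41.3 and 51.5 to 2.00, 6.16 and 13.1 CPM, and Nrg1, neuregulin, rose from 3.91, 5.64 and 0 to 28.1, 30.8 and 91.7 CPM (3.06 ± 0.53). Of the receptors Fgfr1 fell from 359, 388 and 376 to 130.3, 114 and 170.4 CPM (-1.79 ± 0.19), and Egfr rose from 414, 378 and 274 to 741, 939.6 and 1520.3 CPM (1.18 ± 0.16, edgeR adjusted p = 4.58e-10). Egfr was higher in every NPC library than in any RGL library, with its highest level in w4. It was counted in 52.8% of RGL, 65.1% of NPC and 68.7% of the 67 astrocyte nuclei. Of the targets and feedback genes Etv4 and Spred3 fell (-3.68 ± 0.48 and -2.63 ± 0.57), while Etv1 was called higher (0.88 ± 0.29, edgeR adjusted p = 0.0105, and 0.122 without w4).

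BMP signals hold stem cells in quiescence, and genes of BMP and TGF-beta signalling were called lower in 10 and higher in 4 of 28 members. With 14.3%, the higher side was near the 15.9% over all genes. The ligand Tgfb3 fell (-3.52 ± 0.75), and the receptor Bmpr1b went from 415, 329 and 367 CPM in RGL to 70.1, 30.8 and 131 CPM in NPC (-2.88 ± 0.22). The receptor Bmpr1a was not called (-0.31 ± 0.17, edgeR adjusted p = 0.169). Those called higher included the receptors Tgfbr1 (1.22 ± 0.22) and Acvr2b (1.32 ± 0.33), and the count of 4 became 0 without w1 and 2 without w2.

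Wnt pathway genes were called lower in 18 and higher in 6 (3 without w1) of 41 members (median -0.34). Members called higher, 14.6%, were near the 15.9% over all genes. Beside the ligand Wnt8b, the secreted antagonist Frzb fell from 55.7, 83.6 and 55.2 to 2.00, 3.08 and 0 CPM (-5.08 ± 0.57), and Lgr4, a receptor of R-spondins, from 196, 139.5 and 124 to 26.1, 9.24 and 13.1 CPM (-3.45 ± 0.31). Called higher were the membrane antagonist Apcdd1, at 15.2, 31.5 and 36.8 CPM in RGL and 116, 89.3 and 91.7 CPM in NPC (1.78 ± 0.28), and Celsr2, a gene of planar polarity (1.18 ± 0.30). The levels of these 4 genes did not overlap between the clusters.

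Hedgehog genes were called in a single direction, 7 of 16 members lower and 0 higher (median -0.50). The co-receptor Boc stood at 68.3, 63.9 and 64.05 CPM in RGL and 14.03, 15.4 and 0 CPM in NPC. The effectors Gli1 and Gli3 had changes of -1.92 ± 0.42 and -1.72 ± 0.17. The transducer Smo and the co-receptor Cdon were not called (-0.27 ± 0.25 and 0.18 ± 0.18). Genes of the primary cilium, where Hedgehog is received, were called lower in 12 (7 without w1) and higher in 1 (0 without w1, 2 without w4) of 55. The share called lower, 21.8%, was near the 17.5% over all genes. Bbs2, of the BBSome, was among those called lower (-1.63 ± 0.32). Insulin, PI3K and mTOR genes were called in 4 (higher) and 2 (lower, 1 without w1) of 36 members. These shares, 11.1% and 5.56%, lay below the 15.9% and 17.5% over all genes. The kinase subunits Pik3c2b (2.56 ± 0.46) and Pik3r3 (1.24 ± 0.20) rose while Pik3r1 (-0.94 ± 0.19) fell.

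**Figure D5:**
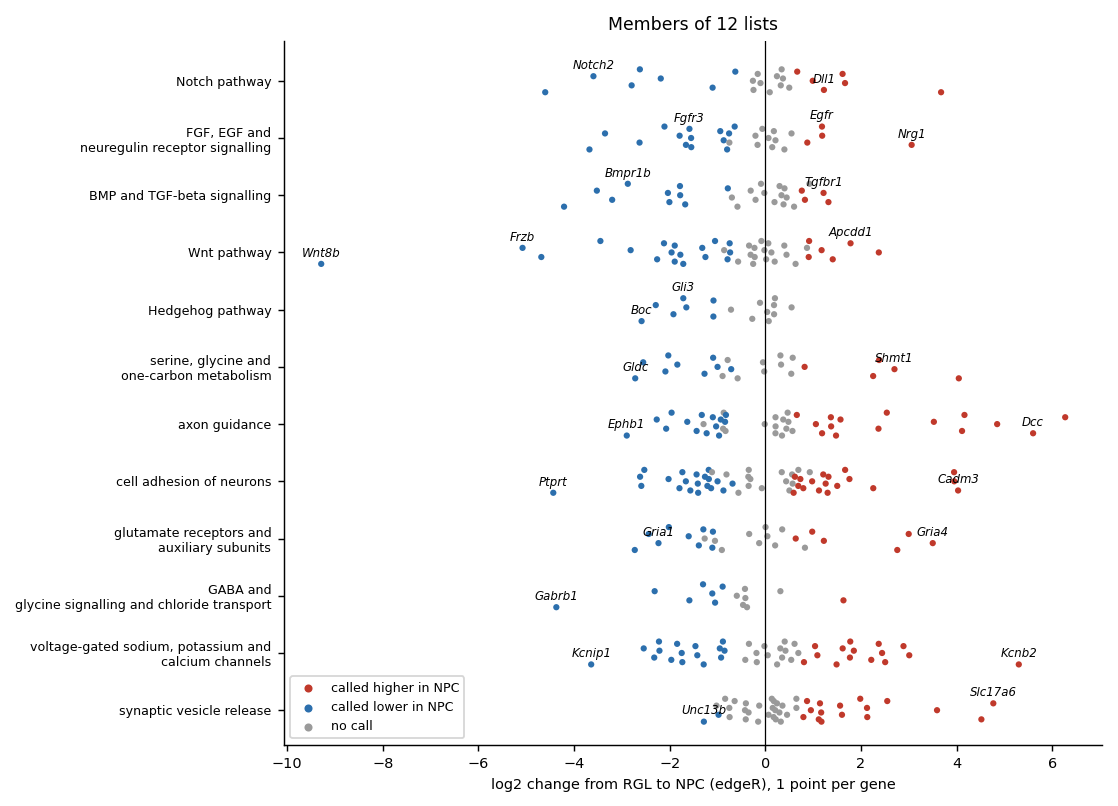
Log2 change from RGL to NPC (x axis) of every tested member of 12 lists, 1 point per gene, in red where called higher in NPC, in blue where called lower and in grey where not called, with vertical scatter only to separate points. Notch2 lies on the lower side and Dll1 on the higher side of the Notch list, Egfr and Nrg1 stand on the higher side of a list with 14 of 28 members called lower, and the Hedgehog list has no member called higher. The position of Wnt8b, which had no UMI in NPC, depends on the prior count of the fit and gives no fold.

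Of the 9 lists of metabolism, 7 had more than the 17.5% over all genes of their members called lower in the fit of all 3 libraries. Fatty acid oxidation was called lower in 12 and higher in 0 of 32 members (median -0.75), or lower in 5 without w1. Acot11, an acyl-CoA thioesterase, stood at 192, 178 and 121 CPM in RGL and 4.01, 6.16 and 13.1 CPM in NPC (-5.24 ± 0.39, edgeR adjusted p = 2.16e-22), and Cpt1a, the gate of mitochondrial import, at 24.4, 26.8 and 33.1 and 6.01, 9.24 and 0 CPM. Ppargc1a, a coactivator of mitochondrial genes, fell as well (-3.86 ± 0.52). Fatty acid synthesis and lipid storage were called lower in 13 of 34 members (6 without w1), with the acyl-CoA synthetases Acss1 (-3.64 ± 0.24) and Acsl3 (-2.94 ± 0.20) and the lipase Mgll (-2.32 ± 0.19). Of 20 sterol genes 6 were called lower (3 without w1, 2 without w2) and 0 higher, among them Msmo1 (-1.57 ± 0.33).

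Glycolysis, lactate and glycogen genes were called lower in 15 and higher in 2 (1 without w1) of 37. The largest falls were in glycogen handling, with Phkg1, of phosphorylase kinase, at 167, 199 and 188 CPM in RGL and 14.03, 9.24 and 26.2 CPM in NPC. Ppp1r3c, which brings phosphatase to glycogen, stood at 22.6, 28.2 and 47.1 and 0, 3.08 and 0 CPM, and Pygl, glycogen phosphorylase, at 22.2, 17.9 and 21.3 and 4.01, 0 and 0 CPM. No NPC library reached an RGL library for these. Serine and one-carbon genes were called lower in 9 and higher in 5 of 23. The share called higher, 21.7%, was near the 15.9% over all genes. Gldc, of glycine cleavage, stood at 521, 406 and 477 CPM in RGL and 102, 73.9 and 65.5 CPM in NPC, and Aldh1l1, which oxidises formyl folate, fell too (-2.56 ± 0.49). Shmt1, which moves the carbon of serine to folate, rose from 7.39, 7.52 and 2.94 to 50.1, 55.5 and 52.4 CPM, and Mthfd1l, which makes formate, rose by 2.38 ± 0.29. Antioxidant genes were called lower in 9 of 31 (5 without w1 or without w2), with the peroxiredoxin Prdx6 (-3.08 ± 0.26) and the transferase Gstm1 (-2.32 ± 0.48), and Txnrd1, thioredoxin reductase, rose (1.70 ± 0.27). Lysosome and autophagy genes were called lower in 13 of 51 (8 without w1, 7 without w2), with Sqstm1, an autophagy receptor, at -1.45 ± 0.26.

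Of 19 genes of the circadian clock and its output factors, 14 were called lower and 0 higher, with a median of -1.62. Arntl (Bmal1), part of the clock's activator, stood at 187, 136 and 135 CPM in RGL and 34.1, 64.7 and 39.3 CPM in NPC (-2.06 ± 0.26, edgeR adjusted p = 3.74e-11). Per1, a repressor of the clock, stood at 39.1, 41.3 and 30.2 and 12.02, 9.24 and 13.1 CPM, and Bhlhe40, another, at 26.5, 31.5 and 22.8 and 0, 3.08 and 0 CPM. All 3 were lower in every NPC library than in any RGL library. Clock, the partner of Arntl, was not called (0.13 ± 0.19). Genes of cycle exit and stress were called at shares near those over all genes (6 higher, 7 lower of 29), with the factors Foxo1 (-2.42 ± 0.24) and Klf9 (-2.32 ± 0.29) and the survival gene Bcl2 (-2.26 ± 0.18) falling and the pocket protein Rbl1 (3.40 ± 0.27), the kinase inhibitor Cdkn2c (2.98 ± 0.50) and the antiproliferative Btg2 (1.34 ± 0.26) rising.

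Of the general machines, respiratory chain genes were called in 1 and 2 of 75 members (higher and lower, median -0.19; 0 and 1 without w1, 0 and 0 without w2) and cytosolic ribosomal proteins in 1 and 0 of 75 (median 0.06; 0 higher without w1 or without w2). The counts were 4 and 1 of 58 for proteasome and chaperonin genes (2 higher without w1, 1 without w2), against 15.9% and 17.5% over all genes. Spliceosome genes were called higher in 11 of 71 (6 without w2) and lower in 3. Ribosome biogenesis genes were called higher in 8 of 49 (2 without w1, 5 without w2) and lower in 1 (0 without w2). For both lists the share called higher was near the 15.9% over all genes. Among the ribosome biogenesis members was Mycn, at 9.57, 20.7 and 20.6 CPM in RGL and 54.1, 64.7 and 91.7 CPM in NPC. A p that misses the threshold does not show that a gene kept its level.

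Without chosen lists, 137 families of at least 8 tested genes that share a symbol stem were counted in the same way. Families with 50% or more of the tested members called higher were Mcm (9 of 10), Kif (18 of 32), Rad (10 of 18), Cep (16 of 32) and Nup (9 of 18), which are helicase, kinesin, repair, centrosome and pore genes. Those with 50% or more called lower were Abca (6 of 8), the lipid transporters, and Cyp (9 of 14), the cytochromes P450. Further such families were Arhgef (11 of 20), Rgs (6 of 11), Aldh (5 of 10), Pde (8 of 16), Camk (4 of 8) and Tspan (6 of 12). Of these, Aldh and Pde had 3 members each called higher too, Arhgef and Tspan 2, Cyp, Rgs and Camk 1 and Abca 0. Among the families on the higher side Kif had 3 called lower, Cep 2 and the others 0. Long genes were called more often in both directions. Of 468 genes over 300 kb, 26.3% were called higher and 37.8% lower, against 8.75% and 13.5% of 1657 genes of up to 10 kb. Long genes collect more UMIs in nuclei, and the part of depth in this difference was not tested.

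From NPC to NB1, 2889 of 7827 genes tested were called (36.9%), 1403 higher in NB1 (17.9%) and 1486 lower (19.0%). Both comparisons use the same NPC sums, so a chance deviation of NPC enters them with opposite sign and their values are set side by side only. The division lists, nearly all higher in NPC than in RGL, were called lower in NB1 in 46 of 53 replication members, 24 of 28 kinetochore members and 42 of 50 spindle members. Kinetochore genes summed to 514 to 601 CPM in RGL, 2961 to 4037 in NPC and 649 to 698 in NB1. Nucleotide synthesis was called lower in 15 and higher in 3 of 26, and nuclear pore genes lower in 16 of 47.

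Glial and stem cell lists had further calls on the lower side. Stem cell factors were called lower in NB1 in 19 of 29 tested members and higher in 0, and astroglial transport in 10 and 1 of 18, with summed levels of 4146 to 4745 CPM in NPC and 1598 to 1618 CPM in NB1. Tnc stood at 40.1, 70.9 and 91.7 CPM in NPC and 1.89, 0.489 and 2.24 CPM in NB1, and Notch2 at 118, 86.3 and 91.7 and 22.00, 23.5 and 13.4 CPM (log2 change -2.07 ± 0.26). Egfr, which had risen in NPC, stood at 26.9, 27.4 and 42.6 CPM in NB1 (-4.79 ± 0.16, edgeR adjusted p = 6.67e-19), and Dll1 fell too (-2.52 ± 0.36). For both genes every NB1 library lay below every NPC library.

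The neuronal lists differed from each other at this step. Neuronal commitment factors were called higher in 11 and lower in 14 of 40, with Eomes falling (-2.45 ± 0.22) and Myt1 not called (-0.56 ± 0.15). Voltage-gated channels, which had split between RGL and NPC, were called higher in 34 and lower in 6 of 49 in NB1, vesicle genes in 26 and 3 of 42, adhesion genes in 30 and 7 of 55, and the neuronal cytoskeleton in 33 and 2 of 57. Some genes were lowest in NPC. Gria1, a glutamate receptor subunit, stood at 869.8, 723 and 687 CPM in RGL, 273, 154 and 144 CPM in NPC and 1182, 1069.5 and 1134 CPM in NB1, and Dab1, which transduces reelin, at 1632, 1333 and 1372, 513, 419 and 629 and 2727, 2835 and 2281 CPM. Kcnma1, a calcium-gated potassium channel, did likewise (97.9, 93.5 and 90.6 in RGL, 28.1, 18.5 and 13.1 in NPC, 263, 313 and 302 CPM in NB1), as did Gabra2 (-1.30 ± 0.29 into NPC, 4.15 ± 0.23 into NB1). In w1, w2 and w4 alike, each of the 4 was lower in NPC than in RGL and in NB1. Imprinted genes, 0 higher and 5 lower of 23 into NPC (3 lower without w1 or without w2), were called higher in 13 and lower in 0 of 21 into NB1. The share called lower into NPC was near the 17.5% over all genes, and the median log2 change was 0.03. As a list they were not lowest in NPC. Their summed level was 2845 to 3228 CPM in RGL, 3715 to 3722 in NPC and 5678 to 6551 in NB1. The member Peg3 had changes of -1.54 ± 0.30 and then 1.01 ± 0.28.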

How the data were processed

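Nuclei of 4 libraries (w1, w2, w4 and w8, between 2867 and 4243 analysed nuclei and 13227971 and 28595331 UMIs each) were read by the authors with STARsolo (2.7.4a in the submitters' processing notes, mm10). The deposited matrices hold raw UMI counts of exons and introns for 45706 features and 17046 barcodes, with multi-mapped reads left out. A second deposited table holds log2 values of 13353 genes (counts over scran size factors, plus 1, by the authors) and names cluster, library and pseudo-time for each of 14367 nuclei. The authors removed doublets, nuclei of low quality and a group of w4 nuclei before clustering. No RGL or NPC barcode occurred in another library.

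Here the raw counts of the nuclei in that table were summed per cluster and library where 10 or more nuclei were present. edgeR 4.0.16 (filterByExpr, TMM, quasi-likelihood test, terms for cluster and library, 6 sums, 2 residual degrees of freedom; R 4.3.3) gave log2 changes and p-values, adjusted by Benjamini and Hochberg over all genes tested. The standard error is the size of the log2 change over the square root of F. The pairing by library comes from the labels: the nuclei of a pair share animals, day and sequencing. Each time point was pooled from 4 dentate gyri, so the spread between the pools measures libraries, not single animals. CPM uses all UMIs of the same nuclei, and intervals and limits from a count of 0 (3 counts) cover counting error only. Fits were tested on simulated counts. For RGL to NPC, 3 of 50 genes changed 1.5-fold, 19 of 50 changed 2-fold and 41 of 50 changed 4-fold were called. For NPC to NB1 these counts were 8, 22 and 40. False calls numbered 4 among 10180 genes and 6 among 7827. Changes near the 1.5-fold threshold were thus mostly missed in the simulated counts. Only 50 genes were changed at each fold there, while 3398 were called in the data, and the cutoff of p depends on that number. The share missed in the data was not tested, which limits how low list counts can be read. Gene positions are those of the GENCODE annotation of GRCm38.

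The members and the lists were chosen with earlier results of these data known. Named genes were the 12 largest fitted changes in each direction over all genes (called, the same sign in every library, 50 or more UMIs, predicted genes left out), up to 4 per list and direction by size, members called against their list, and uncalled members given as values. Slc1a3, Ezh2 and Fgfr3, shown in plots, were chosen after their values were seen. The NPC marker Lockd was not matched. Some genes and the Cre driver are not reported here. List members without any UMI in all nuclei of the series numbered 55, and 29 of these overlap another gene on the same strand, so that their reads may be shared. Python 3.11.15, numpy 2.4.6, pandas 2.3.3, scipy 1.17.1, matplotlib 3.10.9, DESeq2 1.42.0 and limma 3.58.1 served for tables, plots and alternatives (other normalization, filters, thresholds, tests, depths, sets of sums, and each library left out).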

Additional observations from a re-analysis of the deposited data

How the results depend on the processing

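The RGL to NPC comparison gave 3398 calls of 10180 genes tested, and the count moved by more than 1.5 times under 6 alternatives. The number of genes tested differed between alternatives, so each count is given with it. The count was 2082 of 10180 with DESeq2 and 2167 of 10180 with glmTreat, which tests against the fold itself. With w8 and its 2 NPC nuclei added it was 2041 of 6824. Both nuclei lay at a pseudo-time of 3.16, below the 4 under which NPC nuclei lie among the RGLs. At 2000 UMIs per nucleus it was 2200 of 7832. With each pair of sums thinned to the depth of the shallower it was 2226 of 6321. With limma on the mean log2 expression per nucleus it was 301 of 13353. From NPC to NB1 the 2889 calls of 7827 became 1841 of 7827 with glmTreat and 1848 of 5223 at 2000 UMIs per nucleus. With the mean log2 expression they became 260 of 13353, and w8 could not be added, since it held no NB1 nuclei. Leaving out each library in turn gave between 2313 calls of 10287 (without w1) and 3637 of 11291 (without w4). From NPC to NB1 these were 2043 of 7516 and 3784 of 12297. Without the replicate block, that is, without the pairing by library, 3146 and 2698 genes were called. The only named gene that turned its direction was Meg3, with a log2 change of -1.17 in the paired fit and 1.27 with these w8 nuclei added. Of the 347 genes that could be named, 219 of the 247 that could be fitted kept their call with w8 added. With glmTreat 275 kept it, with DESeq2 282, without w1 284, without w2 301 and without w4 334. With the mean log2 expression 63 of 296 kept it. That fit set the 1.5-fold threshold on a mean of log2 values over all nuclei, those without a UMI included. A gene counted in few nuclei, such as Ndc80 (23.9% of NPC nuclei), can miss it even after a large change between sums. The part of this threshold in the low counts of that fit was not tested. By unadjusted p alone, 4049 of 13353 genes passed in it, against 4295 of 10180 in the edgeR fit. Leaving out the nuclei apart in pseudo-time, an alternative chosen after seeing the data, gave 3466 calls. Across all fits of RGL to NPC, that of the mean log2 expression included, members called higher ranged from 6 to 54 for replication genes. They ranged from 2 to 36 for kinetochore and 0 to 52 for spindle genes. Members of astroglial transport called lower ranged from 7 to 28. The cause of these shifts was not tested. The NPC sum of w4 held 76298 UMIs from 22 nuclei, so low genes rest on few counts there, and 2 residual degrees of freedom carry the spread.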
